A study of Mus musculus with 6 samples.

Results

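Chemokines and their receptors were examined in bulk RNA of 6 subcutaneous H22 tumours, 3 of them lenvatinib-resistant and 3 lenvatinib-sensitive. The members were chosen by symbol: all genes of the deposited count table named Ccl, Cxcl, Ccr, Cxcr or Ackr with a number, together with Xcl1, Cx3cl1 and Cx3cr1. This gave 54 of 20482 listed genes, 32 of them ligands and 22 receptors. They bear 53 symbols, because Ccl27a stands on 2 identifiers, one of which had next to no counts. The rule on symbols uses no expression value. Platelet factor 4 (Pf4), pro-platelet basic protein (Ppbp) and the receptor Xcr1 belong to the same families but fall outside the rule on symbols, and are given with the signalling genes. Ccl19, Ccl20, the Ccl21 genes, Ccl26, Ccl27b and Cxcl15 were not analysed here.

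H22 is a mouse hepatocellular carcinoma line, and each tumour was implanted under the skin of a wild-type male C57BL/6 mouse aged 6 weeks, so a library holds tumour cells together with host tissue. The resistant tumours (LR1, LR2 and LR3) came from mice that received the multikinase inhibitor lenvatinib intraperitoneally at 100 mg/kg/day on 2 days a week over 2 cycles. The sensitive tumours (NR1, NR2 and NR3) came from control mice, so exposure to the drug and resistance to it cannot be told apart. The labels contradict one another: a treatment field gives no treatment for any of the 6 tumours, and the protocol mentions both lenvatinib and a solvent where it describes the controls. Within a group, the 3 tumours are biological replicates according to the series' design text.

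Chemokines are small secreted proteins that bind to seven-helix receptors on leukocytes and steer their movement along a gradient of ligand. In tumours the CXCR3 ligands are known as interferon-induced attractants of T cells and natural killer cells, the CCR2 ligands as attractants of monocytes, and the CXCR2 ligands as attractants of neutrophils. Receptors are mostly carried by leukocytes, while ligands are also made by tumour cells, fibroblasts and endothelium. Atypical receptors bind chemokines without the usual G protein signalling and take them up from the surroundings.

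The tumours had total counts of 15995403 to 17545098. Of all counts, the members took 0.146%, 0.164% and 0.0911% in NR1, NR2 and NR3 and 0.0674%, 0.170% and 0.112% in LR1, LR2 and LR3, so the groups overlapped. One library stood apart: immunoglobulin genes took 3.28% of the counts of NR2 and 0.0432% or less in the other 5 tumours, and its summed T cell markers came to 752 CPM against at most 79.2 CPM elsewhere. CPM are counts scaled to a common library size by TMM, the trimmed mean of M values. Where NR2 was the highest tumour of a tested gene, its estimate is therefore also given without NR2. The label of a hepatocellular tumour was met by low levels of its markers: Alb (albumin) stood at 112 to 198 CPM, Afp (alpha-fetoprotein) at 11.5 to 22.8 CPM and Hnf4a at 0.716 to 2.68 CPM.

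Most chemokine receptors and the CXCR3 ligands had lower estimates in resistant tumours, the CXCR2 ligands had higher ones, and no member passed the test across all genes. Of the 54 members, 40 passed the filter on low counts and were tested, 26 ligands and 14 receptors. With edgeR's quasi-likelihood test and Benjamini-Hochberg adjustment, 0 of these 40 had an adjusted p under 0.05, and the share over all 14392 genes tested was 0%. DESeq2, run beside it, called 2 members, Cxcl9 and Cxcl10, both lower in resistant tumours. It called 0.872% of the 13412 genes to which it gave an adjusted p. Of the 40 tested members, 2 ligands (Cxcl11 and Ccl24) and 2 receptors (Ccr3 and Ccr8) had no DESeq2 adjusted p. At an unadjusted p under 0.05, edgeR placed 7 of the 14 tested receptors (50%) and 4 of the 26 tested ligands (15.4%) lower in resistant tumours, against 5.73% of all genes. It placed 1 receptor, Ackr3, and no ligand higher, against 4.02% of all genes. A member that passed the filter mainly through the group in which it is high had to differ, so these counts describe the tested members and not the family.

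Estimates of both receptors and ligands depended on NR2. The log2 fold change, resistant minus sensitive, was below 0 for 12 of 14 tested receptors with a median of -1.26, and for 18 of 26 tested ligands with a median of -0.48, while the median of all genes was -0.02. Without NR2 the medians were -0.61 for receptors and -0.07 for ligands, with 11 receptors and 14 ligands below 0. NR2 held the highest level of 10 of the 14 tested receptors (71.4%) and of 7 of the 26 tested ligands (26.9%), against 32.6% of all genes tested. Without NR2, 3 receptors and 3 ligands had an unadjusted edgeR p under 0.05 and lay lower in resistant tumours, against 3.24% of all genes. These receptors include Ccr8 and Ccr9, which passed the filter through the sensitive group. In bulk RNA, fewer cells of a type and less RNA per cell cannot be told apart, and this holds for every receptor and ligand described here.

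**Figure D1:**
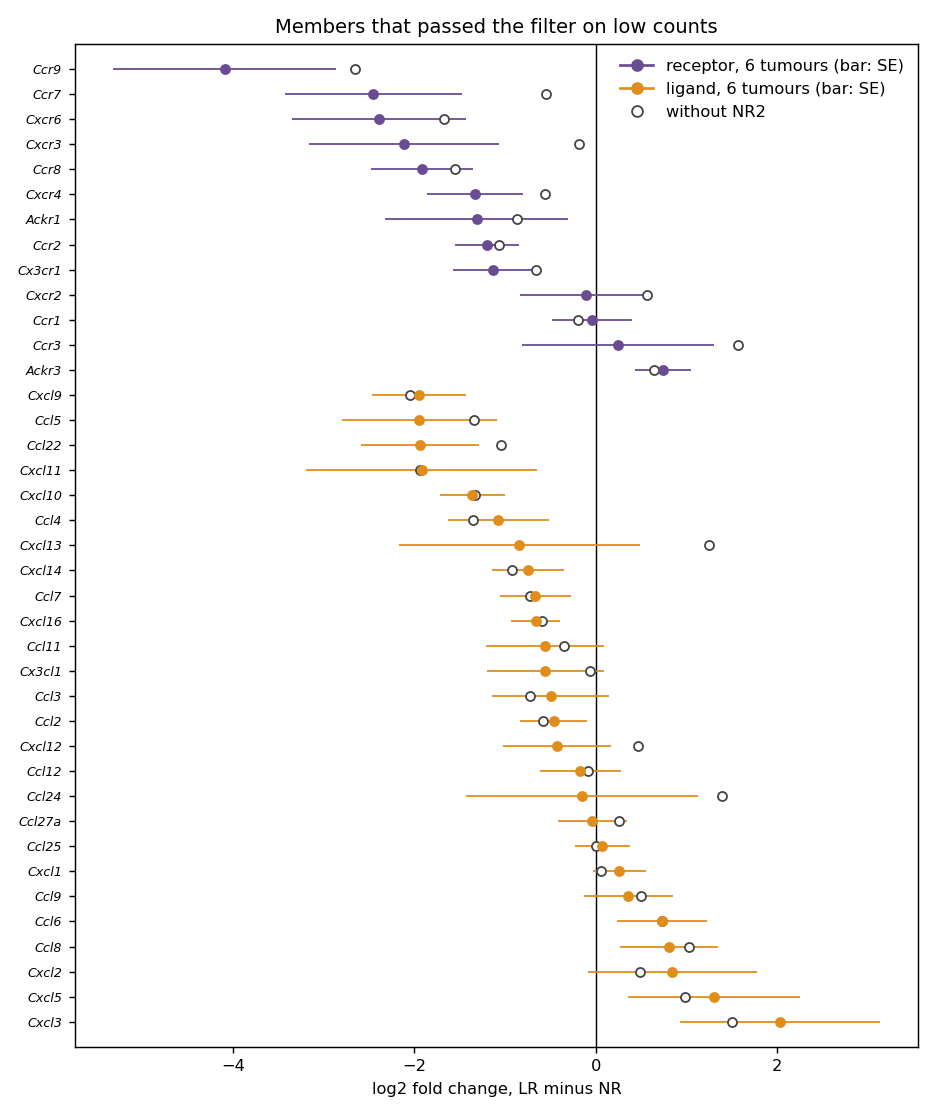
Log2 fold change, resistant (LR) minus sensitive (NR), of 13 receptors and 26 ligands that passed the filter on low counts; filled points with bars are the edgeR estimates and their SE over 6 tumours, and open points the estimates without NR2. Ccr7 and Cxcr3 move towards 0 without NR2, from -2.45 to -0.54 and from -2.12 to -0.19, while Cxcl9 and Ccr2 stay near their estimates.

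Separation of the groups was read tumour by tumour. All 3 resistant tumours lay below all 3 sensitive tumours for 3 of the 26 tested ligands (11.5%; Cxcl9, Cxcl10 and Ccl22) and for 4 of the 14 tested receptors (28.6%; Ccr2, Ccr8, Ccr9 and Cxcr6), against 7.54% of all genes tested. Ccr8 and Ccr9 had 7 counts or fewer in each resistant tumour. They passed the filter through the sensitive group, which favoured their separation, so these shares describe the tested members and not the family. No tested member had all resistant tumours above all sensitive ones, against 8.41% of all genes tested. Over all 54 members the highest tumour was NR1 for 13, NR2 for 25, NR3 for 1, LR1 for 1, LR2 for 10 and LR3 for 4. NR2 was highest for 16 of the 22 receptors but for 9 of the 32 ligands, against 32.6% of all genes tested. These counts include members that did not pass the filter, some of them with counts almost only in NR2.

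The interferon-induced CXCR3 ligands Cxcl9, Cxcl10 and Cxcl11 had a median estimate of -1.92 and included both members that DESeq2 called. Cxcl9 stood at 281, 171 and 151 CPM in NR1, NR2 and NR3 and at 27.2, 33.7 and 95.4 CPM in LR1, LR2 and LR3. Every resistant tumour was below every sensitive one, with LR3 nearest to the sensitive group. The group means were 201 ± 70.2 and 52.1 ± 37.7 CPM (SD, n = 3), and the log2 fold change was -1.95 ± 0.52 (SE). Its adjusted p was 0.510 by edgeR and 0.0174 by DESeq2.

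Cxcl10 showed the same order of groups at a lower level. It stood at 66.9, 57.6 and 40.6 CPM in NR1, NR2 and NR3 and at 13.3, 19.0 and 31.9 CPM in LR1, LR2 and LR3. Here too the groups did not overlap, and LR3 was again the highest resistant tumour. The log2 fold change was -1.36 ± 0.36, with an adjusted p of 0.510 by edgeR and 0.0400 by DESeq2. Leaving out any single tumour kept the log2 fold change of Cxcl9 between -2.72 and -1.62 and that of Cxcl10 between -1.77 and -1.11. An exon of Cxcl10 overlaps one of Art3 on the opposite strand, and any use of strand in the counting remained not given in the sources used here; Art3 was listed at 18.7 CPM at most. Cxcl11 is annotated as a polymorphic pseudogene in GENCODE mouse release M21. It reached only 2.36, 1.25 and 0.286 CPM in the sensitive tumours and 0, 0.119 and 0.892 CPM in the resistant tumours. LR3 exceeded NR3 for Cxcl11, so its groups overlapped, and its estimate was -1.92 ± 1.27.

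The 3 genes lie side by side on chromosome 5 (92321347 to 92365485, build GRCm38). The promoters of the 2 CXCR3 ligands that DESeq2 called are shown because they are the members with a call by any tool, and those of 3 CXCR2 ligands from the neighbouring cluster because they share a sequence motif with them while their estimates lie on the other side of 0. Each sequence runs 5′ to 3′ from 250 bases before to 50 bases after the RefSeq start of transcription (build GRCm38.p6). Capitals mark matches to GGGNNTTNCC, a pattern of NF-kappaB sites searched on both strands, and in Cxcl10 also to GAAANNGAAA, a pattern of interferon regulatory factor sites.
Cxcl9 (chr5:92328030-92328329, minus strand): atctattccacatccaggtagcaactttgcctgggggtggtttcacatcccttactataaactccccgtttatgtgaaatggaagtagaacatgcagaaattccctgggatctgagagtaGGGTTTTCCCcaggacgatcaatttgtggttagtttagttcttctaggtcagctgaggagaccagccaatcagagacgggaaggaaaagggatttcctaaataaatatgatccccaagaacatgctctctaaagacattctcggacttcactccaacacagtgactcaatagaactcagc
Cxcl10 (chr5:92348840-92349139, minus strand): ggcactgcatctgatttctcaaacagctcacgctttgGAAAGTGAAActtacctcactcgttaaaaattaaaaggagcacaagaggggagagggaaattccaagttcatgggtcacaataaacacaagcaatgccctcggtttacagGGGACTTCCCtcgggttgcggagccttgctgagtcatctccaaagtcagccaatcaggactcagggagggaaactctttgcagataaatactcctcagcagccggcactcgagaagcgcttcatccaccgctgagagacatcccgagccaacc
Cxcl1 (chr5:90890995-90891294, plus strand): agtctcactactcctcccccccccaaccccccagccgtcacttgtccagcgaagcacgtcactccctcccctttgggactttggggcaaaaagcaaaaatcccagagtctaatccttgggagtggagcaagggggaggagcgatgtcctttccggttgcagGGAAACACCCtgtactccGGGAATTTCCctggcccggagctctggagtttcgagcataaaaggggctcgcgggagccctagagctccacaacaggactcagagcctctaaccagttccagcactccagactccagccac
Cxcl2 (chr5:90903649-90903948, plus strand): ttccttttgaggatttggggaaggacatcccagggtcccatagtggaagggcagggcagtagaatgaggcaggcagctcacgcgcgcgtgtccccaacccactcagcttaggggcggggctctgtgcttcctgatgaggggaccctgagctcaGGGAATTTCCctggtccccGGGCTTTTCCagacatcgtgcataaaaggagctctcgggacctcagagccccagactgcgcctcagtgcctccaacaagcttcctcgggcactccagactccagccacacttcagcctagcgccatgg
Cxcl3 (chr5:90785851-90786150, plus strand): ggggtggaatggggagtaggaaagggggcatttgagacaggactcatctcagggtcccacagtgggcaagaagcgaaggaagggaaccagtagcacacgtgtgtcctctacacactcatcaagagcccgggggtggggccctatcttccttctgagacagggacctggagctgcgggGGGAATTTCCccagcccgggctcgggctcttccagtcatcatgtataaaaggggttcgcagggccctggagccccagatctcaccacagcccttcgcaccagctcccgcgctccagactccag

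In these windows the NF-kappaB pattern began 130 bases before the start of Cxcl9 and 103 before that of Cxcl10. It began 71 bases before the start of Cxcl1, 73 before that of Cxcl3, and at 97 and 78 before that of Cxcl2; a further match in Cxcl1, 89 to 80 bases before the start, lay on the other strand. The same 10 letters, GGGAATTTCC, stood in Cxcl1, Cxcl2 and Cxcl3. The interferon regulatory factor pattern of Cxcl10 lay 213 to 204 bases before its start. Of the 39 members with a RefSeq promoter, 8 held the NF-kappaB pattern (Ccl9, Ccr3, Ccr6, Cxcl1, Cxcl2, Cxcl3, Cxcl9 and Cxcl10), and it stood in 4.79% of 32851 promoters of the same length. The interferon regulatory factor pattern stood in 2 members (Cxcl10 and Cxcl14) and in 3.44% of promoters. A match is a stretch of letters, and binding was not measured.

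The CXCR2 ligands Cxcl1, Cxcl2, Cxcl3 and Cxcl5, which carry the ELR motif known for attracting neutrophils, were the only ligand group whose tested members all had estimates above 0, with a median log2 fold change of 1.08. Cxcl5 stood at 8.0, 1.85 and 1.54 CPM in NR1, NR2 and NR3 and at 2.62, 20.4 and 5.17 CPM in LR1, LR2 and LR3. Cxcl3 stood at 2.60, 0.119 and 0.400 CPM in the sensitive group and at 1.84, 8.18 and 2.79 CPM in the resistant tumours. In both genes LR2 was highest and NR1 lay within the range of the resistant tumours. The estimates were 1.31 ± 0.95 for Cxcl5 and 2.03 ± 1.10 for Cxcl3.

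Cxcl2 followed the same tumours, with 14.6, 2.74 and 1.60 CPM in NR1, NR2 and NR3 and 8.68, 21.0 and 4.46 CPM in LR1, LR2 and LR3. Cxcl1 varied least, with 24.8, 13.8 and 20 CPM in the sensitive and 17.7, 28.8 and 23.8 CPM in the resistant tumours, with an estimate of 0.26 ± 0.29. LR2 was the highest tumour for each of the 4 genes, and the groups overlapped for each. The median of the group was 2.45 without NR1, 0.73 without NR2 and 0.07 without LR2, in the last case with Cxcl2 at 0.06, Cxcl5 at 0.03 and Cxcl3 at 1.15. Ppbp and Pf4, platelet chemokines encoded between Cxcl5 and Cxcl3 in the same cluster (chromosome 5, 90759360 to 90905938), were also highest in LR2. Pf4 stood at 13.5, 10.4 and 4.57 CPM in NR1, NR2 and NR3 and at 16.3, 60.2 and 21.0 CPM in LR1, LR2 and LR3, so its groups did not overlap, with a log2 fold change of 1.78 ± 0.61 and an adjusted p of 0.510 by edgeR. Summed neutrophil markers were highest in NR2, at 177 CPM, with LR2 next at 108 CPM. Among them S100a9 stood at 5.95, 24.9 and 2.17 CPM in the sensitive and 6.78, 31.1 and 8.92 CPM in the resistant tumours. Ly6g went the other way, at 2.48, 2.98 and 2.74 CPM in the sensitive and 2.08, 1.25 and 2.20 CPM in the resistant tumours. Of 7 tested neutrophil markers, 4 had estimates below 0 and 3 above, with a median of -0.01, and 0.66 without NR2. Their part in the levels of these ligands was not tested.

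**Figure D2:**
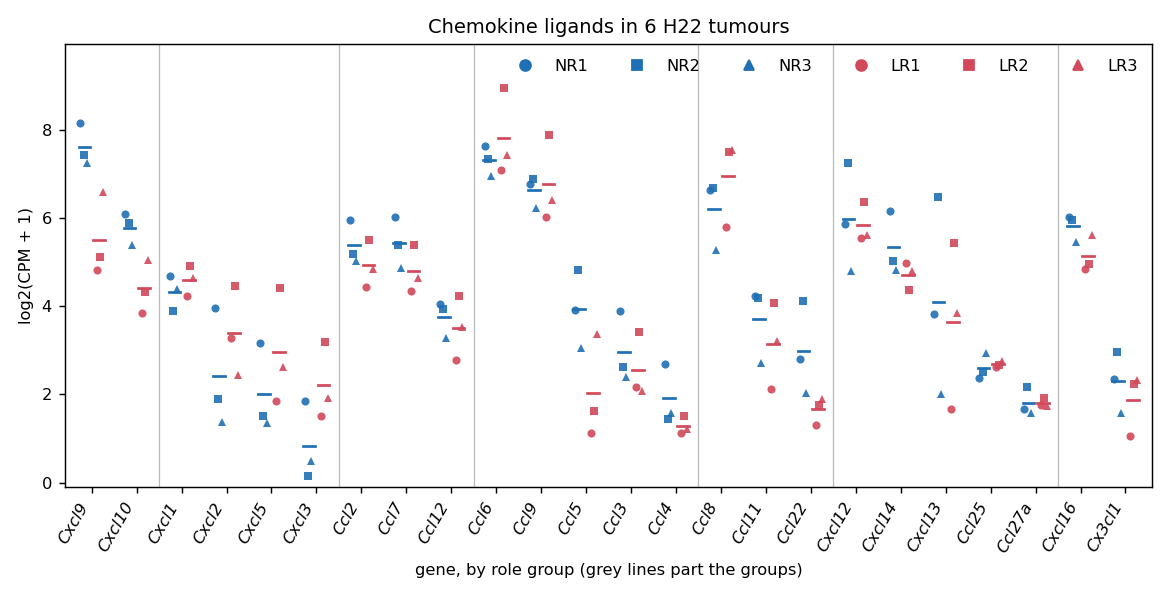
Level of each ligand with a mean of at least 1 CPM in each of the 6 tumours, on a log2(CPM + 1) scale; points are tumours and short lines the group means, and grey lines part the role groups. Cxcl9 and Cxcl10 separate the groups, and LR2 is the highest tumour for Cxcl1, Cxcl2, Cxcl3, Cxcl5, Ccl6 and Ccl9.

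The CCR2 ligands, which call monocytes out of marrow and blood, had small estimates. Ccl2 stood at 60.9, 35.3 and 31.5 CPM in NR1, NR2 and NR3 and at 20.5, 44.5 and 27.5 CPM in LR1, LR2 and LR3. Ccl7 stood at 64.2, 41.0 and 28.1 CPM in the sensitive and 19.4, 40.8 and 23.9 CPM in the resistant tumours. Both were highest in NR1 and lowest in LR1, and the groups overlapped. The log2 fold changes were -0.46 ± 0.37 for Ccl2 (-0.10 without NR1), -0.67 ± 0.39 for Ccl7 (-0.29 without NR1) and -0.17 ± 0.45 for Ccl12, a further CCR2 ligand of mice, which stood at 15.4, 14.2 and 8.68 CPM in the sensitive and 5.83, 17.7 and 10.5 CPM in the resistant tumours.

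The inflammatory ligands Ccl3, Ccl4, Ccl5, Ccl6 and Ccl9 did not share a direction. Ccl5, made by activated T cells, natural killer cells and some myeloid cells, stood at 13.9, 27.2 and 7.31 CPM in NR1, NR2 and NR3 and at 1.19, 2.09 and 9.27 CPM in LR1, LR2 and LR3. LR3 exceeded NR3, so the groups overlapped, and the log2 fold change was -1.95 ± 0.85 (-1.34 without NR2). Ccl6 and Ccl9, myeloid ligands known from mice, were among the most abundant chemokines and were highest in LR2. Ccl6 stood at 196, 160.5 and 122 CPM in the sensitive and at 134, 489.8 and 171 CPM in the resistant tumours. Ccl9 stood at 108, 117 and 73.2 CPM in NR1, NR2 and NR3 and at 63.8, 236 and 83.9 CPM in LR1, LR2 and LR3. In both genes the other resistant tumours lay within or near the sensitive range. The estimate of Ccl6, 0.73 ± 0.49, became -0.07 without LR2, and that of Ccl9, 0.36 ± 0.49, became -0.43. Ccl3, a macrophage inflammatory protein, stood at 13.9, 5.13 and 4.23 CPM in the sensitive and 3.51, 9.73 and 3.21 CPM in the resistant tumours. Ccl4, its close relative, stood at 5.45, 1.73 and 2.00 CPM in the sensitive and 1.19, 1.85 and 1.31 CPM in the resistant tumours. Both were highest in NR1 with overlapping groups, and their estimates were -0.50 ± 0.64 and -1.07 ± 0.56, or 0.25 and -0.34 without NR1.

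Among other inflammatory CC ligands, Ccl22, a CCR4 ligand of dendritic cells and macrophages that attracts regulatory T cells, stood at 6.01, 16.3 and 3.08 CPM in NR1, NR2 and NR3 and at 1.49, 2.39 and 2.73 CPM in LR1, LR2 and LR3. All resistant tumours lay below all sensitive ones, though LR3 and NR3 were close. The log2 fold change was -1.94 ± 0.65 with an adjusted p of 0.510 by edgeR, and -1.04 without NR2. Ccl8 went the other way at a high level, with 98.2, 102 and 37.6 CPM in the sensitive and 54.9, 178 and 185 CPM in the resistant tumours. LR2 and LR3 exceeded every sensitive tumour and LR1 did not, which gave an estimate of 0.81 ± 0.54. Ccl11, an attractant of eosinophils, stood at 17.7, 17.2 and 5.60 CPM in NR1, NR2 and NR3 and at 3.33, 15.8 and 8.26 CPM in LR1, LR2 and LR3. Its groups overlapped, with an estimate of -0.56 ± 0.65 (-0.31 without NR1), and Ccl24, with the same receptor, was at 0 to 2.09 CPM in the sensitive and 0.178 to 1.19 CPM in the resistant tumours. The estimate of Ccl24 was -0.15 ± 1.28 and became 1.39 without NR2.

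Among the homeostatic ligands, the estimates of Cxcl13 and Cxcl12 depended most on NR2. Cxcl13, the B cell attractant of lymphoid follicles, stood at 13.1, 87.2 and 3.03 CPM in NR1, NR2 and NR3 and at 2.20, 42.2 and 13.3 CPM in LR1, LR2 and LR3. Cxcl12, the stromal ligand of CXCR4, stood at 57.5, 151 and 27.0 CPM in the sensitive and 45.9, 81.3 and 48.2 CPM in the resistant tumours. NR2 was highest for both and LR2 came next. Leaving out NR2 turned the estimate of Cxcl13 from -0.84 ± 1.33 to 1.25 and that of Cxcl12 from -0.43 ± 0.60 to 0.47. Cxcl14, a ligand of epithelium and stroma, stood at 70.3, 31.6 and 27.2 CPM in NR1, NR2 and NR3 and at 30.7, 19.5 and 26.9 CPM in LR1, LR2 and LR3. NR1 stood above the other 5 tumours, and the estimate of -0.74 ± 0.40 became -0.18 without NR1. Ccl25, a gut and thymus ligand of CCR9, stood at 4.21, 4.65 and 6.63 CPM in the sensitive and 5.17, 5.37 and 5.77 CPM in the resistant tumours. Ccl27a, a skin ligand of CCR10, stood at 2.17, 3.52 and 2.00 CPM and at 2.38, 2.81 and 2.32 CPM. Their estimates were 0.07 ± 0.31 and -0.04 ± 0.38 (0.26 without NR2 for Ccl27a), and both share exons with a gene on the opposite strand (Elavl1 and Il11ra1).

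Both transmembrane ligands had estimates below 0. Cxcl16, the ligand of CXCR6 and a scavenger receptor on macrophages and dendritic cells, stood at 63.5, 61.0 and 42.8 CPM in NR1, NR2 and NR3 and at 27.9, 29.8 and 48.3 CPM in LR1, LR2 and LR3. LR3 lay above NR3, so the groups overlapped, and the log2 fold change was -0.66 ± 0.27 with an adjusted p of 0.510 by edgeR. Cxcl16 shares an exon with Zmynd15 on the opposite strand, which was listed at 3.28 to 17.5 CPM. Cx3cl1, or fractalkine, stood at 4.09, 6.80 and 2.00 CPM in the sensitive and 1.07, 3.70 and 3.98 CPM in the resistant tumours, which overlapped, with an estimate of -0.56 ± 0.65 that became -0.06 without NR2. Xcl1, the lymphotactin of T and natural killer cells, was not tested, with 9, 15 and 6 counts in the sensitive and 0, 3 and 14 counts in the resistant tumours.

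Among the receptors, Ccr2, the monocyte receptor for Ccl2, Ccl7 and Ccl12, separated the groups at the highest level. Ccr2 stood at 61.9, 90.1 and 77.0 CPM in NR1, NR2 and NR3 and at 18.8, 50.1 and 30.9 CPM in LR1, LR2 and LR3. Every resistant tumour was below every sensitive one. The means were 76.3 ± 14.1 and 33.2 ± 15.8 CPM (SD, n = 3) and the log2 fold change was -1.20 ± 0.36, with an adjusted p of 0.510 by edgeR and 0.0987 by DESeq2. Without NR2 it was -1.06, and leaving out any single tumour kept it between -1.62 and -0.92.

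Markers of monocytes and macrophages were set beside Ccr2. Ly6c2, which marks inflammatory monocytes and is also found on some T cells, stood at 40.9, 217 and 28.6 CPM in NR1, NR2 and NR3 and at 3.80, 5.31 and 10.8 CPM in LR1, LR2 and LR3, with a log2 fold change of -3.85 ± 0.90 (-2.39 without NR2) and an adjusted p of 0.510 by edgeR and 0.000125 by DESeq2. The other macrophage and monocyte markers did not share its order: the estimates were 0.04 ± 0.38 for Adgre1 (F4/80), -0.13 ± 0.50 for Csf1r (0.20 without NR2) and 0.16 ± 0.33 for C1qa. The 12 markers of that list had a median of -0.05, or 0.24 without NR2, and their summed level ran from 1297 to 2888 CPM in the sensitive and from 1089 to 2939 CPM in the resistant tumours. Their part in the difference of Ccr2 was not tested.

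Ccr1, another abundant CC receptor of myeloid cells, overlapped between groups. It stood at 59.4, 29.3 and 24.2 CPM in NR1, NR2 and NR3 and at 23.4, 54.7 and 31.4 CPM in LR1, LR2 and LR3, and its estimate was -0.04 ± 0.44. LR1 was the lowest tumour for Ccr1 and Ccr2. Ccr3, the eosinophil receptor, stood at 0.620, 2.03 and 0.114 CPM in the sensitive and 0.297, 2.15 and 0.832 CPM in the resistant tumours, with an estimate of 0.25 ± 1.06.

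Receptors of lymphocytes were highest in NR2. Ccr7, which guides naive T cells and dendritic cells to lymph nodes, stood at 6.14, 47.2 and 4.06 CPM in NR1, NR2 and NR3 and at 2.62, 2.63 and 5.23 CPM in LR1, LR2 and LR3. Cxcr3, the receptor of Cxcl9 and Cxcl10, stood at 2.91, 20.5 and 1.43 CPM in the sensitive and at 0.892, 1.73 and 3.09 CPM in the resistant tumours. For both genes NR1 and NR3 lay close to the resistant tumours. The estimate of Ccr7 was -2.45 ± 0.98 with all tumours and -0.54 without NR2, and that of Cxcr3 was -2.12 ± 1.05 and -0.19.

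A smaller set kept a distance between the groups outside NR2. Cxcr6, the Cxcl16 receptor of tissue T cells and natural killer T cells, stood at 4.03, 10.3 and 2.97 CPM in NR1, NR2 and NR3 and at 0.119, 0.955 and 2.20 CPM in LR1, LR2 and LR3. Ccr8, a receptor of regulatory T cells, was low in all tumours, at 0.682, 1.55 and 0.971 CPM in the sensitive and 0.357, 0.179 and 0.297 CPM in the resistant tumours, which is 11, 26 and 17 against 6, 3 and 5 counts. Ccr9, the gut-homing receptor, stood at 1.05, 8.71 and 1.77 CPM against 0, 0.418 and 0.238 CPM. For all 3 receptors every resistant tumour lay below every sensitive one. The log2 fold changes were -2.39 ± 0.96 for Cxcr6, -1.92 ± 0.57 for Ccr8 and -4.09 ± 1.23 for Ccr9, and without NR2 they were -1.67, -1.55 and -2.65. Without NR2 the unadjusted edgeR p was 0.126 for Cxcr6, whose NR3 and LR3 levels were close, 0.0478 for Ccr8 and 0.0409 for Ccr9. The filter was set on all 6 tumours, and Ccr8 and Ccr9 passed it through the sensitive group. Their p values therefore describe the tested genes and cannot serve as support for a difference. Ccr9 had only 0, 7 and 4 counts in LR1, LR2 and LR3, and it shares an exon with Slc6a20a on the opposite strand, which was at 0.776 CPM or less. Ccr4, the Ccl22 receptor of regulatory and helper T cells, was not tested: it had 9, 26 and 9 counts in the sensitive and 0, 0 and 1 counts in the resistant tumours.

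Cxcr4 and Cx3cr1 lay between these patterns. Cxcr4, the widely carried receptor of Cxcl12, stood at 21.0, 56.7 and 15.3 CPM in NR1, NR2 and NR3 and at 8.26, 15.7 and 13 CPM in LR1, LR2 and LR3. Cx3cr1, the fractalkine receptor of monocytes, macrophages and cytotoxic lymphocytes, stood at 13.8, 28.0 and 12.1 CPM in the sensitive and at 6.48, 6.03 and 12.1 CPM in the resistant tumours. In each gene 1 resistant tumour (LR2 for Cxcr4, LR3 for Cx3cr1) reached NR3, and NR2 was highest. The log2 fold changes were -1.33 ± 0.53 and -1.13 ± 0.44, and without NR2 they were -0.56 and -0.66. Cxcr2, the neutrophil receptor of Cxcl1, Cxcl2, Cxcl3 and Cxcl5, stood at 4.46, 8.11 and 1.31 CPM in the sensitive and at 2.20, 7.28 and 3.39 CPM in the resistant tumours, with an estimate of -0.11 ± 0.73 that became 0.57 without NR2. Cxcr1 had 0 counts in the sensitive tumours and 2, 1 and 2 counts in the resistant ones.

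**Figure D3:**
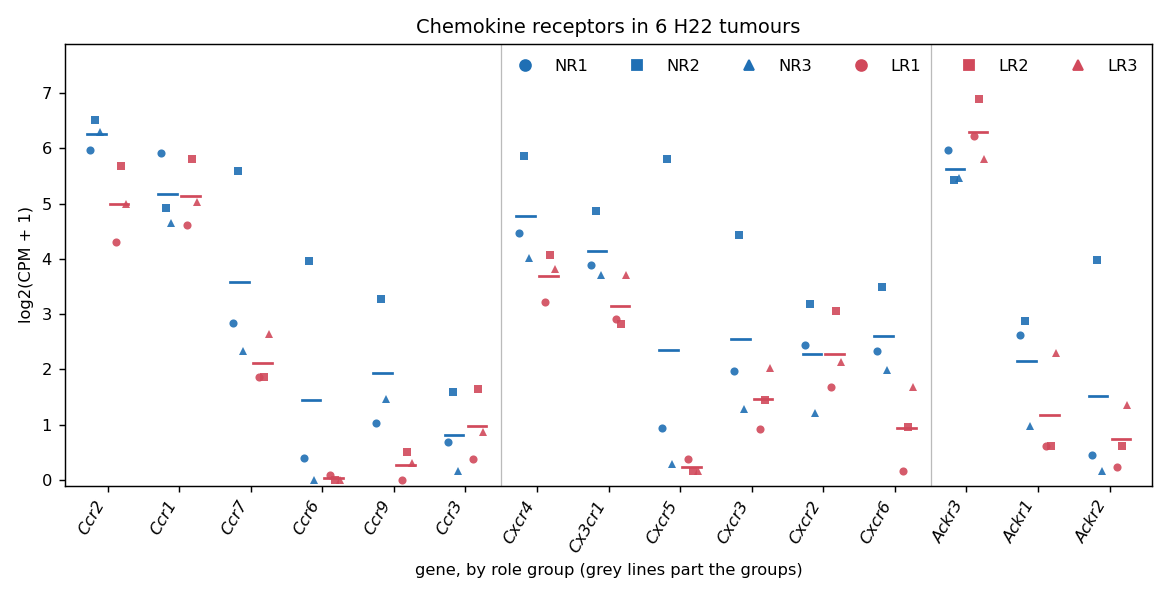
Level of 15 receptors with a mean of at least 1 CPM in each of the 6 tumours, on a log2(CPM + 1) scale; points are tumours and short lines the group means, and grey lines part CC, CXC and CX3C, and atypical receptors. NR2 stands alone for Cxcr5 (55.1 CPM), Ccr6 (14.6 CPM) and Ackr2 (14.7 CPM), Ccr2 separates the groups, and Ackr3 is highest in LR2.

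Several receptors were nearly private to NR2 and did not pass the filter. Cxcr5, the Cxcl13 receptor that leads B cells and follicular helper T cells into follicles, had 924 counts in NR2 and 15, 4, 5, 2 and 2 counts in NR1, NR3, LR1, LR2 and LR3. Its 55.1 CPM in NR2 was 59.3 times the next level, and Ccr6, carried by B cells, dendritic cells and helper T cells, was at 14.6 CPM there, 47.0 times the next, with 0.310 CPM in NR1, 0.0594 CPM in LR1 and 0 in NR3, LR2 and LR3. Ackr2, a scavenger of inflammatory CC chemokines, was at 14.7 CPM in NR2, 9.50 times the next level, with 0.372 and 0.114 CPM in NR1 and NR3 and 0.178, 0.537 and 1.55 CPM in LR1, LR2 and LR3. Ackr4, a scavenger of homeostatic chemokines, had 41 counts in NR2 and 0 elsewhere, at least 13.2-fold higher than a floor of 3 counts per library. The B cell marker Ms4a1 stood at 214 CPM in NR2 and at 1.30 CPM or less in the other 5 tumours. Markers of lymphatic endothelium were split. Prox1 stood at 25.5 CPM in NR2 and 1.31 CPM or less elsewhere, and Mmrn1 at 52.0 CPM and 4.87 CPM or less. Lyve1 stood at 203 CPM in NR2 and 131 CPM in LR2, and Pdpn was highest in LR2, at 40.2 CPM. The share of B cells and of lymphatic endothelium in the values of the receptors was not tested. Cxcr5 shares an exon with Bcl9l on the opposite strand, which was listed at 33.9 to 57.0 CPM and was highest in NR2. Ackr4 shares an exon with Acad11 on the opposite strand, which was listed at 4.93 to 44.5 CPM and was also highest in NR2. The part of Bcl9l and Acad11 in the values of Cxcr5 and Ackr4 was not tested. The remaining members without a test (Ccl1, Ccl17, Ccl28, Cxcl17, the second Ccl27a identifier, Ccr10 and Ccr1l1) had 9 counts or fewer in every tumour.

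Ackr3 had a higher estimate in resistant tumours, as among the tested receptors only Ccr3 did besides. This atypical receptor of endothelium, stroma and tumour cells takes up CXCL12 and CXCL11. It stood at 61.5, 41.8 and 43.1 CPM in NR1, NR2 and NR3 and at 73.2, 117 and 54.6 CPM in LR1, LR2 and LR3. LR1 and LR2 exceeded every sensitive tumour, while LR3 lay below NR1, so the groups overlapped. The log2 fold change was 0.74 ± 0.31 with an adjusted p of 0.510 by edgeR, and 0.40 without LR2. Ackr1, the Duffy receptor of venules and red cells, stood at 5.14, 6.32 and 0.971 CPM in the sensitive group and at 0.535, 0.537 and 3.92 CPM in the resistant group. NR3 and LR3 broke the order of the groups, and Ackr1 had an estimate of -1.31 ± 1.01 (-0.87 without NR2 and -2.93 without LR3). Ackr1 shares an exon with Cadm3 on the same strand. Cadm3 was listed at 17.5, 17.1 and 3.71 CPM in the sensitive and 0.535, 8.84 and 2.73 CPM in the resistant tumours. Its log2 fold change was -1.66, and its part in the values of Ackr1 was not tested.

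**Figure D4:**
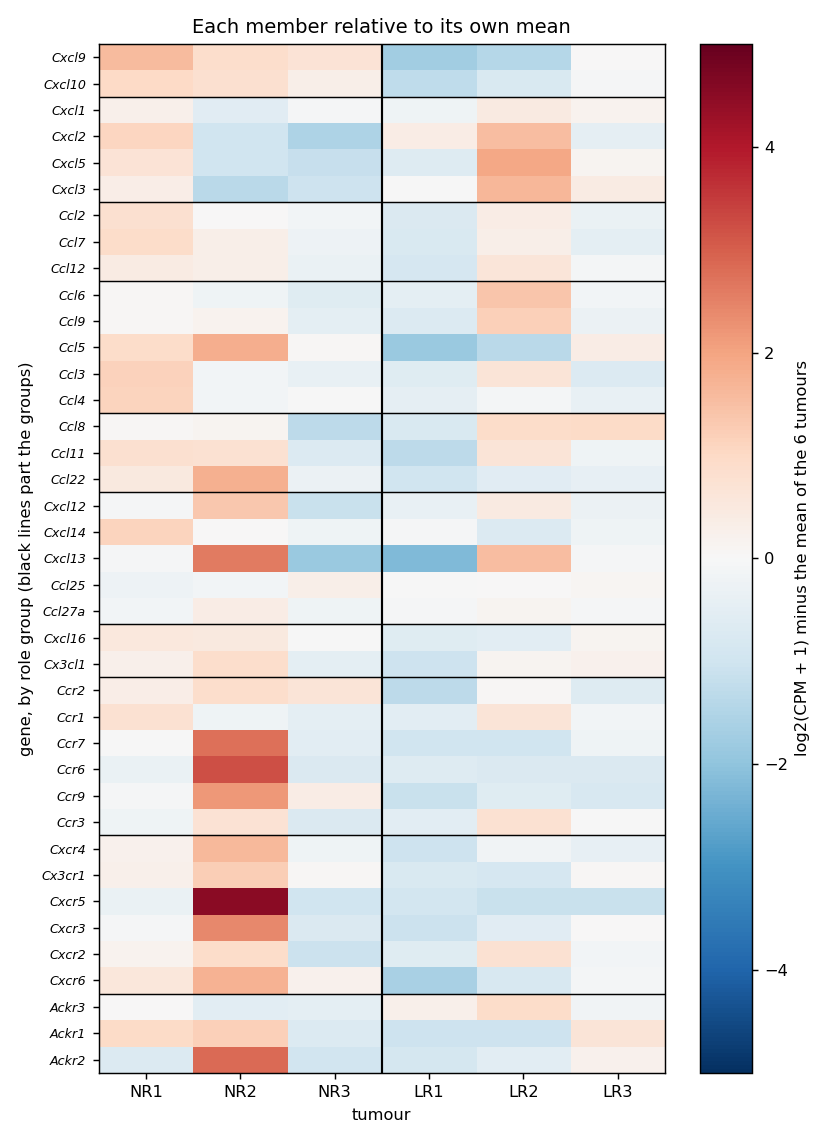
Each of 39 members with a mean of at least 1 CPM in each tumour, as log2(CPM + 1) minus its own mean over the 6 tumours (colour scale), with sensitive tumours left and resistant tumours right of the black line. The NR2 column is highest for most receptors, the LR2 column for the CXCR2 ligands, Ccl6 and Ccl9, and the Cxcl9 and Cxcl10 rows change at the line.

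Ligands and their receptors were set side by side. Cxcl9 and Cxcl10 were highest in NR1, whereas their receptor Cxcr3 was highest in NR2 and stood at only 2.91 CPM in NR1. Cxcl16 and its receptor Cxcr6 both had estimates below 0 with and without NR2 (Cxcr6 at -1.67 without it). Ccl22 and its receptor Ccr4 had their highest levels in NR2 and their lower levels in the resistant tumours. Cxcl13 was high in LR2, at 42.2 CPM, while Cxcr5 had 2 counts there. The CCR2 ligands overlapped between groups, while Ccr2 did not.

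By level per length, in the deposited FPKM (counts scaled by gene length and library size), the ligands with the highest mean over the 6 tumours were Ccl8 at a mean of 214, Ccl6 at 83.2, Ccl7 at 44.4, Cxcl9 at 37.9 and Ccl9 at 35.1. The order differed by group: Cxcl9 ranked 3 among the ligands in the sensitive tumours at a mean of 59.1 FPKM and 6 in the resistant tumours at 16.6 FPKM. Among the most abundant receptors were Ackr3 at 18.8, Ccr1 at 12.9 and Cxcr4 at 7.89 FPKM. Ccl8 ranged from 74.0 to 380.1 FPKM between tumours and Ccl6 from 48.4 to 193.7, and the ranges of successive ligands and of successive receptors named here overlapped.

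Of 6 chromosomal clusters, 3 had all their tested members on one side of 0, where 75% of all tested members lay below 0. On chromosome 5 the 4 CXCR2 ligands all lay above 0 and the 3 CXCR3 ligands all below. Ccl22 and Cx3cl1, neighbours on chromosome 8 (94745590 to 94812036, with Ccl17), both lay below 0 (Cx3cl1 near 0 without NR2). On chromosome 11 the cluster of Ccl2, Ccl7, Ccl11, Ccl12, Ccl8 and Ccl1 (82035571 to 82305690) had 4 of 5 tested members below 0 with a median of -0.46. The neighbouring cluster of Ccl5, Ccl9, Ccl6, Ccl3 and Ccl4 (83525778 to 83664683) had 3 members below and 2 above 0, with a median of -0.50. A receptor cluster on chromosome 9 had 5 of 6 tested members below 0, with a median of -1.01.

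Genes that act with the family were taken from 2 further lists. Of 35 genes of chemokine signalling and its control, 26 had estimates below 0 and 9 above, with a median of -0.88, and -0.21 without NR2. None had an adjusted p under 0.05 by edgeR, and 7 lay lower and 1 higher at an unadjusted p under 0.05 (5.73% and 4.02% of all genes). DESeq2 called 1, Plcb2 (0.872% of genes with a DESeq2 adjusted p), and gave Xcr1 no adjusted p. Plcb2, the phospholipase C of leukocytes downstream of chemokine receptors, stood at 10.5, 45.2 and 6.05 CPM in NR1, NR2 and NR3 and at 2.26, 3.94 and 3.63 CPM in LR1, LR2 and LR3, without overlap. Its log2 fold change was -2.65 ± 0.78, or -1.33 without NR2, with an adjusted p of 0.510 by edgeR and 0.0374 by DESeq2. Of the others with the smallest p, Jak2, a kinase that some cytokine receptors use, had an estimate of -0.57 ± 0.18 (-0.37 without NR2), Rgs1, a brake on chemokine receptor signalling in lymphocytes, -1.09 ± 0.41 (-0.75), and Ptk2b, a kinase of leukocyte movement, -1.20 ± 0.49 (-0.39). Xcr1, the Xcl1 receptor of cross-presenting dendritic cells, stood at 23.0 CPM in NR2 and at 1.13 CPM or less in the other 5 tumours.

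The inducers of chemokines, a list of 18 cytokine and transcription factor genes, had 14 tested members, all with estimates below 0, as had 52.7% of all genes. Their median was -0.54 with all tumours and -0.53 without NR2. By edgeR none passed the adjusted threshold and 6 lay lower at an unadjusted p under 0.05 (5.73% of all genes). DESeq2 called 1, Tnf (0.872% of genes with a DESeq2 adjusted p), and gave Ifng and Ltb no adjusted p. Ifng, or interferon gamma, the inducer of Cxcl9, stood at 1.05, 1.55 and 1.31 CPM in NR1, NR2 and NR3 and at 0.297, 0.0597 and 0.178 CPM in LR1, LR2 and LR3. Tnf, or tumour necrosis factor, stood at 9.24, 12.2 and 3.94 CPM in the sensitive and at 2.08, 1.43 and 2.32 CPM in the resistant tumours. Neither gene overlapped between groups, but in LR2 and LR3 Ifng lay at or under the level of 3 counts (0.179 and 0.178 CPM). The log2 fold changes were -2.82 ± 0.63 for Ifng (-2.68 without NR2) and -2.12 ± 0.49 for Tnf (-1.76 without NR2), the latter with an adjusted p of 0.510 by edgeR and 0.0238 by DESeq2. Smaller p values also belonged to the interferon-induced factor Irf1 (-1.06 ± 0.40, and -0.64 without NR2), the hypoxia factor Hif1a (-0.38 ± 0.12) and lymphotoxin beta, Ltb (-4.55 ± 1.73, and -0.80 without NR2).

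Markers of T cells and natural killer cells, which carry several of the receptors, had estimates below 0, while those of macrophages, neutrophils, and mast cells and eosinophils were split. All 17 T cell markers had estimates below 0, with a median of -3.54 and of -1.27 without NR2. DESeq2 called 8 of them (0.872% of genes with a DESeq2 adjusted p) and gave Cd3d, Cd5, Lck, Cd247 and Cd8a no adjusted p. By edgeR none was called, with 15 lower at an unadjusted p under 0.05 (5.73% of all genes). Summed T cell markers came to 79.2, 752 and 50.6 CPM in NR1, NR2 and NR3 and 16.8, 16.5 and 47.6 CPM in LR1, LR2 and LR3. All 10 natural killer cell markers also lay below 0, with a median of -2.22 and of -1.19 without NR2. Their sum ran from 97.6 to 169 CPM in the sensitive and from 68.5 to 90.7 CPM in the resistant tumours. It came mostly from Eomes except in NR2, where Eomes stood at 49.9 CPM of 169 CPM. The 8 markers of blood endothelium lay below 0 with a median of -0.57, and 6 of them without NR2, with a median of -0.34. Of the myeloid lists, macrophage and monocyte markers had 6 below and 6 above 0, neutrophil markers 4 and 3, and mast cell and eosinophil markers 1 and 4. Dendritic cell markers lay mostly below 0, with 8 below and 2 above. Their median was -1.22, and -0.47 without NR2. The part of these cell types in the differences of Ccl5, Ccr7, Ccr8, Ccr9, Cxcr3 and Cxcr6 was not tested. LR3, the resistant tumour with the most Cxcl9, Cxcl10 and Ccl5, also had the highest summed T cell markers of its group. Among the sensitive tumours NR2 had the highest sum and the most Ccl5, whereas Cxcl9 and Cxcl10 were highest in NR1. A part of T cells in the levels of Cxcl9 and Cxcl10 was not tested.

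**Figure D5:**
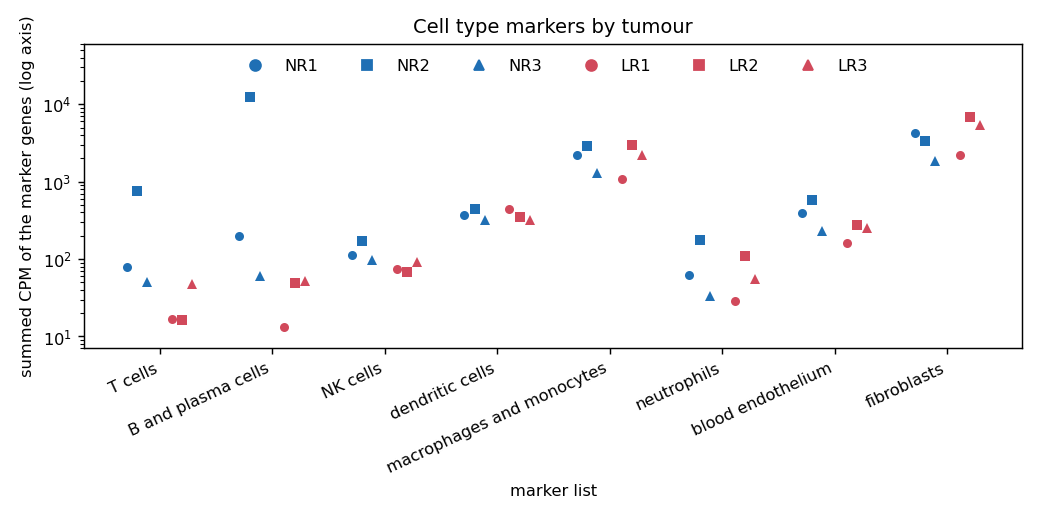
Summed CPM of the marker genes of 8 cell types in each tumour, on a log axis; each point is a tumour. NR2 stands far above the rest for T cells (752 CPM) and for B and plasma cells, whereas the groups overlap for macrophages and monocytes, neutrophils and fibroblasts.

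Summed fibroblast markers ran from 1846 to 4222 CPM in the sensitive and from 2224 to 6847 CPM in the resistant tumours, and were highest in LR2, the tumour that also led the CXCR2 ligands. Tissue around the tumour differed between libraries as well: skeletal muscle markers summed to 1188 CPM in NR1 and 1.37 CPM in NR3, and fat markers to 1381 CPM in NR1 and 41.0 CPM in LR1. Their part in the levels of the ligands was not tested.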

How the data were processed

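Per the labels' protocols, TRIzol was used for total RNA and a VAHTS Universal V6 kit (Vazyme) for the libraries. HISAT2, StringTie and edgeR appear, with no version, in the submitters' processing notes. Build, annotation and any use of strand were not given in the sources used here. Whole-number read counts per gene and a table of FPKM were deposited by the authors, and every listed gene has at least 2 counts in all. Depth gives 3 counts a level of 0.171 to 0.186 CPM on the scaled libraries. Coordinates come from GENCODE mouse release M21 (GRCm38) by identifier, and 53 of 54 members were found there; promoters come from RefSeq (GRCm38.p6).

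The deposited counts of the 3 resistant and 3 sensitive tumours, grouped by sample title, were compared in R 4.3.3 by edgeR 4.0.16, using filterByExpr, TMM and the quasi-likelihood test without a block, over 14392 genes. An SE is the fold change divided by the root of its F. DESeq2 1.42.0, limma 3.58.1, other scalings, no filter, FPKM with a pseudocount of 1 or 0.1, a replicate block and leaving out each tumour were the alternatives. The fit was tested on simulated data. Replicate numbers did not pair the tumours. Members with a mean of at least 1 CPM were described tumour by tumour and the others by range or counts, and up to 6 tested genes with the smallest p were named per pathway list. The rule on symbols uses no expression value, but the choice of this family, and so of its members, and of the lists and further genes was made with earlier results of these data known. A member, a promoter pattern and some further genes are not reported here by name, but enter the counts and medians.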

Additional observations from a re-analysis of the deposited data

How the results depend on the processing

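The count of genes with an adjusted p under 0.05 was 0 with edgeR and 117 with DESeq2, which called 2 ligands, Cxcl9 and Cxcl10, and no receptor. The receptors Ccr3 and Ccr8 had no DESeq2 adjusted p. The receptor median of -1.26 became -0.62 on log2(FPKM + 1), and ran from -1.50 to -0.61 when each tumour was left out, with -0.61 without NR2. The ligand median ran from -0.81 to -0.07.

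Of the 37 tested members with a mean of at least 1 CPM, 26 kept the sign of their estimate under all 15 alternatives. Changes of sign by other settings touched 3 members near 0. Ccl27a turned from -0.04 to 0.0094 (upper quartile scaling), 0.0070 (voom), 0.038 (library size), 0.015 (FPKM + 1), 0.064 (FPKM + 0.1) and 0.0039 (replicate block). Ccr1 turned from -0.04 to 0.054 (library size), 0.059 (FPKM + 1) and 0.064 (FPKM + 0.1), and Cxcr2 from -0.11 to 0.076 (voom), 0.012 (FPKM + 1), 0.10 (FPKM + 0.1) and 0.038 (replicate block). The cause was not tested. Leaving out 1 tumour gave ranges across 0 for Ccl25 (-0.035 to 0.29), Ccl27a (-0.19 to 0.26), Cxcl12 (-0.84 to 0.47), Cxcl13 (-2.18 to 1.25), Ccl3 (-1.20 to 0.25), Ccl6 (-0.065 to 1.05), Ccl9 (-0.43 to 0.68), Ccl12 (-0.65 to 0.14), Ccr1 (-0.46 to 0.47), Ccr3 (-0.71 to 1.57) and Cxcr2 (-0.73 to 0.57).

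The replicate numbers did not pair the tumours: deviations of same-numbered tumours correlated at 0.05, 0.31 and -0.16. With the number as a replicate block, 0 genes were called, 1120 against 1404 had an unadjusted p under 0.05, and the medians were -0.47 for ligands and -1.22 for receptors. With 3 tumours a group, a common biological coefficient of variation of 0.402 and a median SE of 0.26 limit what can pass.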
